A study of Mus musculus with 32 samples.

Results

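Fkbp5 encodes FKBP51, a co-chaperone of the steroid receptor complexes, and its transcript in the frontal cortex was used to rank mice within each microbiota donor species. The mice of high Fkbp5 were the top 4 of 12 given human microbiota, the top 4 of 12 given macaque microbiota and the top 3 of 8 given squirrel monkey microbiota. The mice of low Fkbp5 were the same numbers from the bottom of each ranking. In all, 22 of the 32 mice were members (11 high and 11 low), and the 10 mice between them were left out of the comparison. The members were thus chosen by measured Fkbp5 levels, as CPM (the count scaled to the library total), so Fkbp5 itself is described here without a test.

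The treatment groups of the series were the donor species, each of which gave as many high as low mice. There was 1 library of frontal cortex (prelimbic and infralimbic area) from each mouse after inoculation with gut microbiota. The labels used here give no strain, sex, age or further treatment, and they give the donors by species only, so that mice which share a donor individual or a cage cannot be identified. Each of the 6 batches held mice of 1 donor species, and every batch held both high and low mice. Library totals were 1553789 ± 229881 counts in the high mice and 1541104 ± 326818 in the low mice (mean ± SD, n = 11 each). Numbers of mice, such as human 12, are names only and have no order. All 15 measured upper layer and all 17 deep layer neuron genes had counts in both groups. All 12 striatal genes did so too, so this does not tell cortex from neighbouring tissue. A few libraries stood apart: human 1, 4 and 12 and squirrel monkey 8, all high mice, had the highest levels of myelin genes, human 7, also a high mouse, had the highest levels of striatal genes, and macaque 6, a low mouse, had the lowest total of the series. For some genes and lists, results are given with and without them. In the macaque group 3 of the 4 high mice and 0 of the 4 low mice were in plate column 5, and all 4 low mice were in column 4, so that part of the contrast there is also a contrast of plate columns.

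Glucocorticoids released by the adrenal gland enter the brain and bind the glucocorticoid receptor (Nr3c1) and the mineralocorticoid receptor (Nr3c2). Bound receptors move to the nucleus and act on glucocorticoid response elements near target genes. Fkbp5 is such a target, and its protein lowers the affinity of the glucocorticoid receptor for hormone, which makes a short feedback loop. Tsc22d3, which encodes the leucine zipper protein GILZ, and the kinase gene Sgk1 are other widely used targets.

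The promoter windows of these 2 targets are shown because their levels carry the check of the Fkbp5 ranking below. They were chosen after their values were seen. The windows run from 250 bases before to 50 bases after an annotated start (RefSeq, build GRCm38.p6, another build than that of the counts), and Sgk1 had 6 such windows and Tsc22d3 had 3. For each gene the window with the longest match is printed; of the other Sgk1 windows 2 held a single AGAACA or TGTTCT and 3 held neither, and the other 2 Tsc22d3 windows held neither. Capitals mark, in the Sgk1 window, the full glucocorticoid response element searched for (AGAACA, any 3 bases, TGTTCT) and, in the Tsc22d3 window, the single site TGTTCT. Both strands are covered, since AGAACA is the reverse complement of TGTTCT.
Sgk1, chr10:21993640-21993939, plus strand: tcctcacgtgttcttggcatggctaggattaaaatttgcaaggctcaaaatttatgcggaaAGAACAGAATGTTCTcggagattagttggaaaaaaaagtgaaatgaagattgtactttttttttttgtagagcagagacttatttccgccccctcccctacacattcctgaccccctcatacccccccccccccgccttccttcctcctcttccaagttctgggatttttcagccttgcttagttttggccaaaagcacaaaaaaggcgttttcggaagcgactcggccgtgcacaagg
Tsc22d3, chrX:140600473-140600772, minus strand: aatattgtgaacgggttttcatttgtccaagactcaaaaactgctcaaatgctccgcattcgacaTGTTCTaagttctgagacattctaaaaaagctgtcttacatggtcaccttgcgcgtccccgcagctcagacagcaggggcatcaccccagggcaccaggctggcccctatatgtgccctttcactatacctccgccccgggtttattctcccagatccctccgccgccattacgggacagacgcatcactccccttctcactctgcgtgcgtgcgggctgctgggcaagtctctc
The full element was found in 3 of 32851 windows of the table (0.00913%), and 1 of those 3 is the Sgk1 window above. Among 43 windows of 29 genes (glucocorticoid response genes listed below and Fkbp5), 1 held the full element (2.33%). A single AGAACA or TGTTCT was in 20.9% of these windows and in 19% of all windows, those within the full element included. The single windows of Arrdc2 and Fkbp5 held neither. A match is a description of letters in this window and not a measured binding site.

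Fkbp5 values separated the groups by construction. In the human group the high mice had 70.94, 67.52, 65.49 and 64.65 CPM and the low mice 50.25, 44.51, 36.1 and 29.06 CPM. In the squirrel monkey group they had 81.83, 81.57 and 73.96 against 54.48, 54.09 and 40.98 CPM. In the macaque group they had 59.58, 59.51, 55.84 and 51.44 against 38.51, 35.25, 34.58 and 32.85 CPM. The low squirrel monkey mice at 54.48 and 54.09 CPM thus lay above the lowest high macaque mouse, since ranks were taken within donor species.

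The mice just outside the groups were close to those just inside, except on the high side of the squirrel monkey group (60.71 against 73.96 CPM). The nearest unused mouse on the high side had 62.27 CPM in the human group, 60.71 in the squirrel monkey group and 51.07 in the macaque group. On the low side it had 55.62, 60.39 and 42.13 CPM. Each value rests on 34 to 134 Fkbp5 counts among the 22 mice. The 95% exact Poisson interval of macaque 12, the lowest high macaque mouse, was 40.72 to 64.1 CPM, and that of the excluded macaque 1 was 40.62 to 63.39 CPM. These 2 intervals overlap almost wholly. All such intervals cover counting error only. Fkbp5 also overlaps 2 genes on the opposite strand, so its values are uncertain if counts were made without strand.

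**Figure D1:**
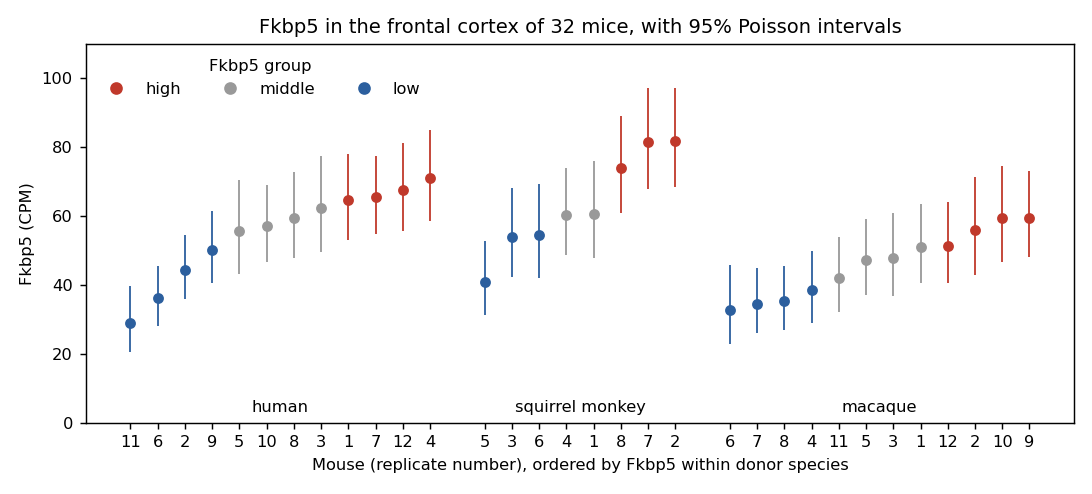
Fkbp5 level of each of the 32 mice in CPM, ordered within donor species, with bars for the 95% exact Poisson interval. Red and blue points are the high and low mice that the ranking chose, and grey points are the 10 unused mice; the intervals of neighbours across each boundary overlap.

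Tsc22d3 was higher in the high Fkbp5 mice of the human and squirrel monkey groups, with no overlap, and the macaque mice overlapped. In the human group the high mice had 105, 113, 103 and 128 CPM (mice 1, 4, 7 and 12) and the low mice 73.2, 76.3, 75.9 and 67.8 CPM (mice 2, 6, 9 and 11). In the squirrel monkey group the values were 154, 155 and 145 CPM against 122, 66.9 and 109 CPM. In the macaque group they were 120, 89.4, 71.4 and 71.0 CPM against 61.9, 138, 94.3 and 59.1 CPM, and the highest of these 8 was the low mouse macaque 6. Over the 22 mice the difference in mean log2(CPM + 1) was 0.41 (exact permutation test, states relabelled within donor species, two-sided, p = 0.0147, Benjamini-Hochberg p = 0.0295 over the 2 marker genes; 98000 relabellings). The high mouse was above the median of the low mice of its donor species in 9 of 11 cases. With states relabelled within batch the adjusted p was 0.0569 (exact permutation test). With 1 mouse left out it was above 0.05 in 8 of 22 cases (human 11 or 12, squirrel monkey 2, 5 or 7, or macaque 2, 4 or 8), up to 0.0582. Without the 4 mice of highest myelin gene levels the difference was 0.33 (exact permutation p = 0.133). A dependence of the Tsc22d3 difference on donor species did not pass (edgeR interaction, adjusted p = 0.728).

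Sgk1 overlapped between high and low mice in every donor species. The human high mice had 44.9, 73.4, 83.6 and 232 CPM and the low mice 29.2, 76.8, 26.8 and 64.1 CPM. The squirrel monkey mice had 86.2, 51.3 and 166 CPM against 96, 47.1 and 73.8 CPM. The macaque mice had 63.7, 49.2, 38.9 and 58.6 CPM against 35.1, 96.6, 40.9 and 35.2 CPM. The values of 232 and 166 CPM belong to human 12 and squirrel monkey 8, both among the 4 mice of highest myelin gene levels. The difference in mean log2(CPM + 1) was 0.51 (exact permutation test as above, p = 0.106; adjusted over the 2 marker genes p = 0.106), and it passed only when macaque 6 was left out (0.60, exact permutation p = 0.0335). Without the 4 mice of highest myelin gene levels it was 0.21 (exact permutation p = 0.43).

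Within batches, the high minus low difference in log2(CPM + 1) was above 0 in 5 of 6 batches for Tsc22d3 (range −0.25 to 0.94) and in 4 of 6 for Sgk1 (−0.15 to 1.43). These values rest on 1 to 3 mice a side in a batch.

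Across all genes, high Fkbp5 went with 23 genes higher and 12 lower among 13219 tested (edgeR quasi-likelihood test with donor species as covariate, Benjamini-Hochberg adjusted p under 0.05; 0.265% of genes called, 0.174% higher and 0.0908% lower). Higher genes included the mineralocorticoid receptor gene Nr3c2 and Arrdc2, an alpha-arrestin gene, and lower genes included the cortical transcription regulators Lmo4 and Nr2f1. The adjusted p of the called genes was 0.0288 to 0.0494, and no gene was called in 9 of the 22 fits that leave out 1 mouse (human 1, 6, 9 or 11, squirrel monkey 2, 3, 5 or 6, or macaque 8). At an unadjusted p under 0.05 there were 837 higher genes (6.33%) and 664 lower genes (5.02%). The median log2 fold change over all genes was −0.004.

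The list of glucocorticoid response genes was mostly on the high side without passing the test gene by gene. It was written from general knowledge, but with earlier results of these data known, so its counts are a description only. Of 31 members tested out of 32, 1 was called higher (Arrdc2) and 0 lower, against 0.174% and 0.0908% of all genes, so the count rests on a single gene. The log2 fold change was above 0 for 30 of 31 members (96.8%, against 48.8% of all genes), with a median of 0.34. Per donor species it was above 0 for 28 of 31 members in the human group (median 0.43), 30 of 31 in the squirrel monkey group (0.51) and 15 of 31 in the macaque group (−0.02). The name "stress hormone state" for this contrast therefore rests on 1 called member, and the groups are called here by their Fkbp5 level.

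Arrdc2 had a mean of 21.6 ± 13.1 CPM in the high mice and 10 ± 4.63 CPM in the low mice (SD, n = 11 each). In the human group the values were 9.58, 14.7, 19.6 and 52.3 CPM against 5.74, 11.2, 7.65 and 6.71 CPM. In the squirrel monkey group they were 26.4, 24.3 and 36.6 CPM against 16.8, 9.56 and 16.8 CPM. In the macaque group they were 18.3, 16.2, 10.3 and 9.12 CPM against 7.56, 16.4, 7.55 and 4.18 CPM. Every high mouse was above the median of the low mice of its donor species, and the groups did not overlap in the squirrel monkey mice. The log2 fold change was 1.15 ± 0.26 (SE; edgeR adjusted p = 0.0494), and the high minus low difference in log2(CPM + 1) was above 0 in 6 of 6 batches (0.45 to 1.83). The adjusted p was above 0.05 in 17 of the 22 fits that leave out 1 mouse, up to 0.125.

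**Figure D2:**
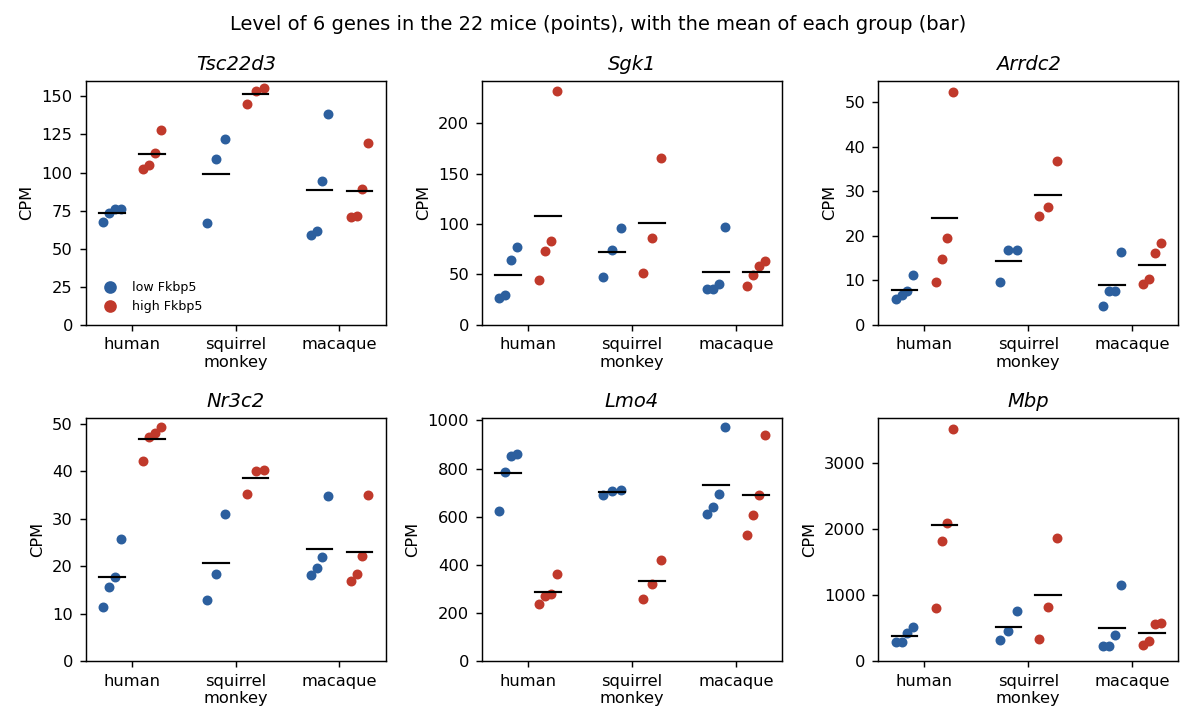
CPM of 6 genes in each of the 22 mice, with low Fkbp5 mice in blue, high Fkbp5 mice in red and black bars for the mean of each group of 3 or 4 mice. Tsc22d3, Nr3c2 and Lmo4 separate the groups in human and squirrel monkey mice and overlap in macaque mice.

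The other list members with the smallest p did not pass. Errfi1, a feedback inhibitor of the EGF receptor, had a log2 fold change of 0.62 ± 0.17 (SE; edgeR adjusted p = 0.106), and its high mice were above the low median of their donor species in 11 of 11 cases. Tiparp, a poly(ADP-ribose) polymerase gene, had 0.60 ± 0.18 (adjusted p = 0.134), and the transcription factor gene Klf9 had 0.34 ± 0.10 (adjusted p = 0.155). Klf9 differed most in the macaque group (log2 fold change 0.49) and least in the squirrel monkey group (0.09). Without strand in the counting, values of Errfi1 and Tiparp are uncertain because each overlaps a gene on the opposite strand.

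The metallothionein genes Mt1 and Mt2, which encode zinc-binding proteins, followed the donor pattern of Tsc22d3. Mt1 had 750, 850, 675 and 870 CPM in the human high mice against 477, 464, 504 and 546 CPM, and 830, 759 and 993 CPM in the squirrel monkey high mice against 508, 460 and 679 CPM. In the macaque group it had 590, 414, 712 and 525 CPM against 538, 801, 662 and 474 CPM. The groups did not overlap in human and squirrel monkey mice and overlapped in macaque mice, where the highest value was again that of macaque 6. The fit gave a log2 fold change of 0.37 ± 0.12 for Mt1 (edgeR adjusted p = 0.175) and 0.40 ± 0.13 for Mt2 (adjusted p = 0.191). With the myelin score described below as covariate, Mt1 had 0.15 and Mt2 0.16. Without the 4 mice of highest myelin score, Mt1 had 0.19 and Mt2 0.20.

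A few list members of low level had large fold changes that rest on few mice. Lcn2, which encodes the secreted protein lipocalin, had 45.0 CPM in human 12 and at most 2.45 CPM in the other human high mice (log2 fold change 2.42 ± 0.71, edgeR adjusted p = 0.136). Plin4, a lipid droplet protein gene, had 10.2, 6.73, 0.489 and 10.3 CPM in the human high mice and at most 1.44 CPM in the human low mice (log2 fold change 1.43 ± 0.47, adjusted p = 0.201). Rasd1, a small G protein gene, had 0.85 ± 0.31 (adjusted p = 0.256), and Ddit4, an inhibitor of mTOR signalling, 0.47 ± 0.19 (adjusted p = 0.324). In the same fit Tsc22d3 had 0.41 ± 0.13 (adjusted p = 0.181) and Sgk1 0.63 ± 0.27 (adjusted p = 0.357). The MAP kinase phosphatase gene Dusp1 was the single member below 0 (−0.22 ± 0.20, adjusted p = 0.751), and without the human mice it was 0.014. With the myelin score described below as covariate, Lcn2 had 0.34 and Plin4 0.41. Without the 4 mice of highest myelin score, Lcn2 had 0.68 and Plin4 0.11.

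**Figure D3:**
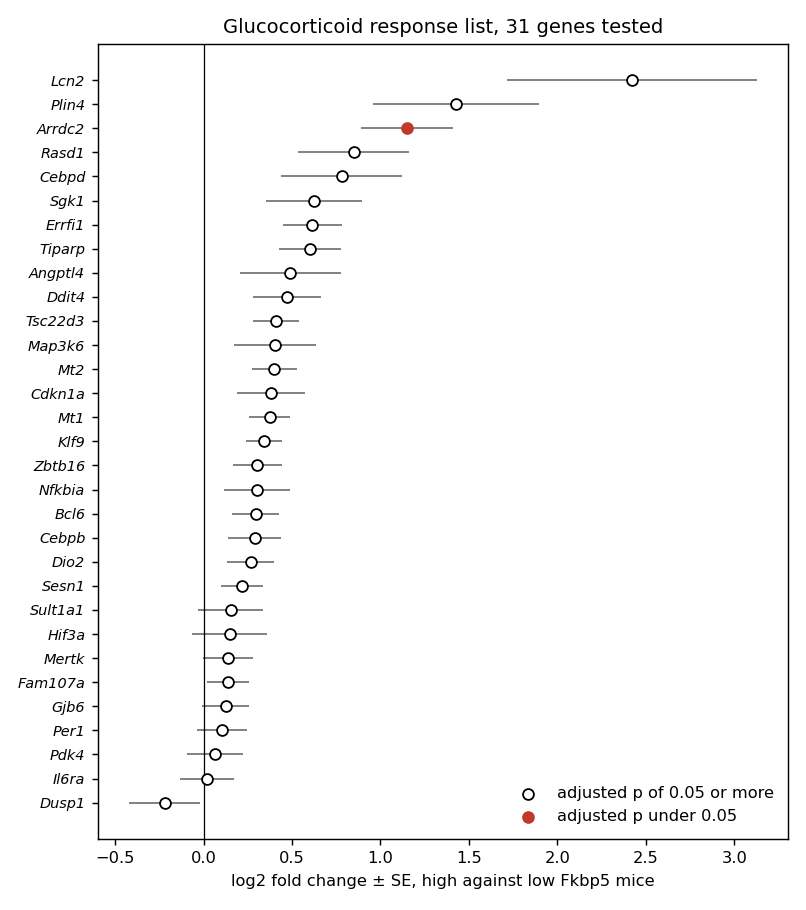
Log2 fold change of high against low Fkbp5 mice, with its standard error, for the 31 tested members of the glucocorticoid response list. The filled point, Arrdc2, is the single member past the threshold, and 30 of 31 points lie to the right of 0.

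Of the receptors themselves, the mineralocorticoid receptor gene was called higher and the glucocorticoid receptor gene did not pass. Nr3c2 had 47.3, 42.2, 49.4 and 48.1 CPM in the human high mice against 25.9, 17.8, 11.5 and 15.7 CPM in the low mice. In the squirrel monkey group it had 40.3, 40.1 and 35.3 CPM against 12.9, 18.4 and 31.01 CPM. In the macaque group it had 18.3, 16.8, 34.9 and 22.1 CPM against 22.01, 34.8, 18.2 and 19.7 CPM. High and low mice did not overlap in the human and squirrel monkey groups and overlapped wholly in the macaque group. The log2 fold change over the 22 mice was 0.81 ± 0.18 (edgeR adjusted p = 0.0494), and by donor species it was 1.38, 0.90 and 0.02 in the same order, a dependence on donor species that did not pass (edgeR interaction, adjusted p = 0.186). Its adjusted p was above 0.05 in 16 of the 22 fits that leave out 1 mouse, and 0.101 with batch in place of donor species. Genes on the opposite strand overlap Nr3c2, so its values are uncertain if counts were made without strand.

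Nr3c1, named here because it encodes the glucocorticoid receptor, had 93.3 ± 15.5 CPM in the high mice and 99 ± 12.6 CPM in the low mice (SD, n = 11 each). Its log2 fold change was −0.08 ± 0.08 (edgeR adjusted p = 0.794), and 4 of 11 high mice were above the median of the low mice of their donor species. Crhr1, a receptor for corticotropin-releasing hormone, had 10.5 ± 3.97 against 16.2 ± 4.91 CPM (log2 fold change −0.65 ± 0.19, adjusted p = 0.139). Fkbp4, which encodes FKBP52, a related co-chaperone of the same complexes, had 112 ± 13.7 against 106 ± 17.3 CPM (log2 fold change 0.10 ± 0.09, adjusted p = 0.753). A stretch of at least 100 bases within the last 300 of a Fkbp4 transcript matched 55 other genes. Of the list of receptors and chaperones 1 of 14 tested genes was called higher (Nr3c2) and 0 lower, against 0.174% and 0.0908% of all genes, with a median of −0.002. Of the other FKBP family genes 0 of 15 passed in either direction (edgeR, adjusted p under 0.05), where 0.265% of all genes did. Of these 15 genes 10 were above 0, with a median of 0.05.

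Beside Nr3c2 and Arrdc2, the naming rule took 10 further higher genes. Hhip, which encodes a membrane protein that binds hedgehog ligands, had 24.5, 12.2, 6.84 and 22.5 CPM in the human high mice against 2.39, 0.508, 1.64 and 2.98 CPM in the low mice. Its squirrel monkey mice had 11.3, 4.61 and 4.66 CPM against 3.05, 2.73 and 2.51 CPM, and its macaque mice 6.11, 4.53, 7.93 and 5.86 CPM against 4.81, 5.80, 2.52 and 2.39 CPM. Every high mouse was above the median of the low mice of its donor species (log2 fold change 1.86 ± 0.34, edgeR adjusted p = 0.0288). These are levels of a few counts, since 5 CPM is about 7.67 counts at the median depth.

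Dusp5, a phosphatase gene of the ERK pathway, had 12.0 ± 4.96 against 5.74 ± 2.04 CPM (SD, n = 11 each; log2 fold change 1.09 ± 0.21). Klf10, a zinc finger transcription factor gene induced by TGF-beta, had 47.2 ± 14.6 against 27.3 ± 10.1 CPM (0.82 ± 0.18). All 11 high mice were above the low median of their donor species for both genes. Klf10 in macaque mice had 53.2, 44.0, 31.7 and 75.5 CPM against 30.9, 18.4, 27.7 and 23.3 CPM with no overlap. Scrt2, a neuronal transcriptional repressor gene, was alike in all donor species, with log2 fold changes of 0.97, 0.91 and 1.02 in human, squirrel monkey and macaque mice.

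The remaining higher genes of the rule were Syndig1l (log2 fold change 1.36), Prr18 (1.24), Spink8, a peptidase inhibitor gene (1.16), Dlk1, a Notch ligand-like gene (1.06), Plxnd1, a semaphorin receptor gene (0.92), and Wipf3, an actin regulator gene (0.84). Syndig1l, Prr18 and Wipf3 had macaque values of 0.10, 0.12 and 0.17, and a dependence on donor species did not pass for any of them (edgeR interaction, adjusted p = 0.261, 0.308 and 0.104). Prr18 had 0.38 with the myelin score described below as covariate and 0.47 without the 4 mice of highest myelin score (edgeR adjusted p = 0.807 and 0.754). Wipf3 had 243, 215, 184 and 223 CPM in human high mice against 89.5, 77.3, 67.2 and 70.8 CPM in low mice, with no overlap. Hhip, Syndig1l, Dusp5 and Wipf3 overlap genes on the opposite strand, and Syndig1l also shares the sequence of its last bases with the gene that it overlaps.

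Outside the rule, 11 more genes were higher, with log2 fold changes of 0.26 (Ptk2b, a calcium-dependent tyrosine kinase gene) to 0.69 (Necab2, a calcium-binding protein gene). They included the kinase gene Prkca (0.61), the zinc exporter gene Slc30a1 (0.41) and Mchr1, a receptor for melanin-concentrating hormone (0.57). These names were chosen after their values were seen.

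Of the 12 lower genes, Nwd2, Lmo4 and Nr2f1 had the smallest adjusted p. Lmo4, a LIM-only transcriptional co-regulator gene of upper cortical layers, had 281, 363, 238 and 270 CPM in human high mice against 622, 784, 862 and 853 CPM in low mice. Its squirrel monkey mice had 320, 260 and 419 CPM against 689, 706 and 711 CPM. Its macaque mice had 688, 937, 525 and 606 CPM against 613, 642, 693 and 974 CPM. The log2 fold change was −0.84 ± 0.15 (edgeR adjusted p = 0.0288). The groups did not overlap in human and squirrel monkey mice and overlapped in macaque mice, and the difference between donor species passed its own test (below).

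Nr2f1, an orphan nuclear receptor gene that patterns the cortex, had 63.5, 69.7, 41.1 and 47.5 CPM in human high mice against 126, 150, 142 and 152 CPM. Nwd2 had 35.3, 45.3, 29.8 and 35.9 CPM against 61.3, 116, 102 and 134 CPM in the human mice. Over the 22 mice the log2 fold change was −0.83 ± 0.15 for Nr2f1 and −0.99 ± 0.18 for Nwd2 (edgeR adjusted p = 0.0288 for both), and 1 of 11 high mice was above the low median of its donor species for each. Nrgn, which encodes the postsynaptic calmodulin-binding protein neurogranin, had 1176 ± 214 against 1566 ± 214 CPM (SD, n = 11 each; log2 fold change −0.42 ± 0.09), and 0 of 11 high mice were above the low median.

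The other lower genes were Grp, a neuropeptide gene (log2 fold change −0.995), Rspo2, a Wnt enhancer gene (−0.91), Synpr, a synaptic vesicle protein gene (−0.84), the cholecystokinin receptor gene Cckbr (−0.65), the actin nucleator gene Cobl (−0.59), the adhesion gene Flrt3 (−0.52), the zinc importer gene Slc39a10 (−0.44) and the channel gene Trpv2 (−0.36). Of these, Flrt3 and Trpv2 had differences of like size in every donor species (−0.66, −0.50 and −0.37 for Flrt3, and −0.33, −0.39 and −0.38 for Trpv2). Cobl, Slc39a10 and Cckbr had −0.10, −0.04 and −0.11 in macaque mice. A stretch of at least 100 bases within the last 300 of a Trpv2 transcript matched 48 other genes. Its counts may thus hold reads of other genes. Grp, Nwd2, Nr2f1, Synpr, Cobl and Flrt3 overlap genes on the opposite strand.

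**Figure D4:**
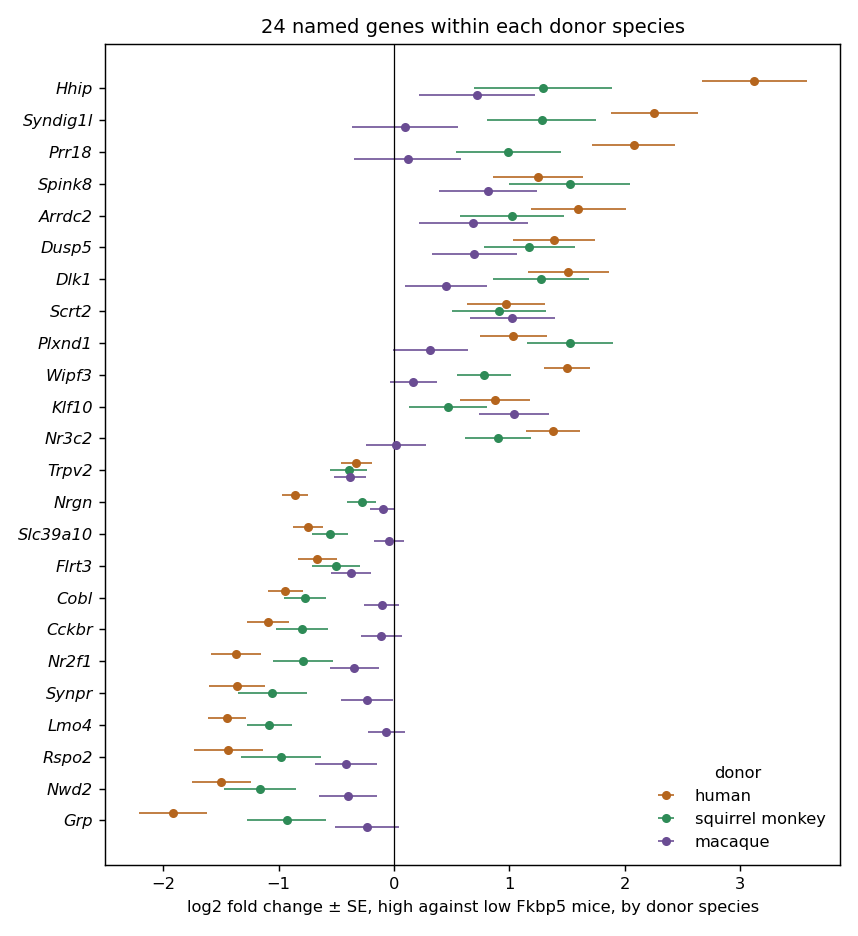
Log2 fold change of high against low Fkbp5 mice, with its standard error, within each donor species for the 24 genes of the naming rule. The macaque point is the closest to 0 of the 3 for every gene except Scrt2, Klf10 and Trpv2, whose macaque points are 1.02, 1.04 and −0.38.

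Whether the difference depends on donor species was tested by an interaction, which called 5 genes (0.0378% of 13219; 1087 genes at an unadjusted p under 0.05). Stxbp6, a syntaxin-binding protein gene, had 59.3, 76.5, 53.8 and 58.4 CPM in human high mice against 129, 106, 93.4 and 117 CPM in low mice. In macaque mice it had 121, 145, 117 and 110 CPM against 70.1, 68.6, 84.3 and 103 CPM. The groups thus did not overlap in either donor species, in opposite directions (log2 fold change −0.85 and 0.61, and −0.05 in squirrel monkey mice; edgeR interaction adjusted p = 0.0336). Cntn2, an axonal adhesion gene also made by oligodendrocytes, had 1.18, 0.41 and −0.16 in human, squirrel monkey and macaque mice (adjusted p = 0.0336), and Lmo4 had −1.45, −1.08 and −0.07 (adjusted p = 0.0336). Sema6a, a semaphorin gene, had 0.88, −0.24 and −0.48 (adjusted p = 0.0451). None of the glucocorticoid response list was among the 5, so a dependence of that list on donor species was not shown gene by gene.

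Markers of other cell types were measured in the same libraries. All 22 oligodendrocyte and myelin genes were above 0 (median log2 fold change 1.06). In either direction 0 of 22 passed (edgeR), where 0.265% of all genes did. Mag, a myelin adhesion protein gene, had 67.9 ± 62.6 against 24.7 ± 16.9 CPM (SD, n = 11 each; log2 fold change 1.35 ± 0.38, adjusted p = 0.123). The summed level of the list was 1179 to 13110 CPM in high mice (median 3254) and 1126 to 4837 CPM in low mice (median 1721), and 0 of the 22 markers were at 0 in either group. The median of the list was 2.37 in human mice, 0.81 in squirrel monkey mice and −0.27 in macaque mice, where 0 of 22 members were above 0. In bulk tissue, fewer cells of a type and less RNA per cell cannot be told apart.

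A myelin score, the mean over the list of log2 CPM centred on each gene's mean, was above 1 in 4 of the 22 mice, all of high Fkbp5 (human 12, 1 and 4 and squirrel monkey 8, with 2.37, 1.66, 1.41 and 1.43). The next highest was macaque 6 of the low group (0.98). With this score as covariate 2 genes were called higher and 0 lower (808 at an unadjusted p under 0.05), and 1 of the 2, Scrt2, was among the 35 (log2 fold change 1.24, edgeR adjusted p = 0.0344). Without the 4 mice, 3 genes were called higher and 0 lower (843 at an unadjusted p under 0.05), and these were Scrt2, Plxnd1 and Lmo3, all among the 35. That fit has 1 human high mouse left. It is human 7, the mouse of high striatal genes, which had the highest level of the 22 mice for all 3 genes (Scrt2 44.5, Plxnd1 49.9 and Lmo3 215 CPM), and the striatum list had a median of 0.66 in that fit, against 0.24 over the 22 mice. All 35 genes kept their direction in both fits, which reuse mice in which they were called.

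The glucocorticoid response list kept 29 of 31 members above 0 with the score as covariate (median 0.21, 0 called) and 28 of 31 without the 4 mice (median 0.24, 0 called). Sgk1 had a log2 fold change of 0.04 ± 0.22 with the covariate, against 0.63 without it, and Tsc22d3 0.23 ± 0.12 against 0.41. Arrdc2 had 0.69 ± 0.24 with the covariate and 0.88 ± 0.21 without the 4 mice (edgeR adjusted p = 0.622 and 0.184). Lmo4 had −0.61 and −0.71 (adjusted p = 0.258 and 0.218), and Nr3c2 0.54 and 0.68 (adjusted p = 0.588 and 0.413). Hhip had 1.14 and 1.22 (adjusted p = 0.329 and 0.197), against 1.86 in all mice without the covariate. With the covariate Wipf3 had 0.52, Synpr −0.54 and Nrgn −0.26 (adjusted p = 0.258, 0.502 and 0.523).

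Among the upper layer, deep layer and interneuron lists, only the upper layer list held a called gene. The upper layer neuron list had 1 of 15 genes called lower (Lmo4; 0.0908% of all genes were) and 5 of 15 above 0 (48.8% of all genes were), with a median of −0.20. Its summed level was 2119 to 3878 CPM in high mice (median 2557) and 2915 to 3874 CPM in low mice (median 3267), and 0 of the 15 were at 0. Cux2 had a log2 fold change of −0.62 ± 0.18 (edgeR adjusted p = 0.123) and Otof −1.06 ± 0.31 (adjusted p = 0.134). Cux2 had a mean of 29.6 ± 6.95 against 69.8 ± 15.1 CPM in human mice and 69.9 ± 17.5 against 66.9 ± 27.8 CPM in macaque mice (SD, n = 4 each). The deep layer list had 11 of 16 genes above 0 (median 0.08) with 0 called. The interneuron list had 9 of 14 (median 0.12) with 0 called, where 0.265% of all genes were called.

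All 18 astrocyte genes were above 0 (median 0.11; 0 called) and all 18 were below 0 in macaque mice. Aqp4, the astrocyte water channel gene, had 0.46 ± 0.17 (edgeR adjusted p = 0.243) and Gfap 0.79 ± 0.37 (0.41). All 12 tested meninges and fibroblast genes were above 0 (median 0.38; 0 called), and their sum was 117 to 379 CPM in high mice (median 221) and 99.7 to 341 CPM in low mice (median 147). The collagen gene Col1a1 among them had 0.82 ± 0.37 (adjusted p = 0.395), and −0.14 without the human mice. The microglia list had 9 of 15 above 0 (median 0.03), the endothelial list 13 of 17 (0.10), the mural list 8 of 11 (0.23) and the red cell list 4 of 5 (0.30), with 0 called in each. Of the choroid plexus list 4 genes were tested, all above 0 (median 0.33), and 0 were called. With 0.265% of all genes called, 0 in lists of this size is near the share of all genes.

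The striatum list had 7 of 7 tested genes above 0 (median 0.24). It had 0 called, where 0.265% of all genes were, and 1 library stood apart in it. Human 7, a high mouse, had a summed level of 959.9 CPM, where the other high mice had 187.8 to 332.1 CPM and the low mice 192.4 to 269.9 CPM. Penk, the enkephalin precursor gene, had 211.6 CPM in that mouse (log2 fold change over the 22 mice 0.74 ± 0.31, edgeR adjusted p = 0.341). Without human 7 the fit called 8 genes higher and 7 lower, of which 13 were among the 35.

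Lists of regional markers chosen after the called genes were seen are given as a description only. Their counts can be set beside 0.174% of all genes called higher and 0.0908% called lower, but the called genes guided the choice of the lists. Of 10 tested hippocampal genes 2 were called higher (Spink8 and Nr3c2), with a median of 0.62. Of 7 cortical excitatory genes 1 was called lower (Nrgn) and 1 was above 0, with a median of −0.16. Of 9 claustrum and insula genes 2 were called lower (Synpr and Rspo2), with a median of 0.04. All 4 compared mice of myelin score above 1 were of high Fkbp5. The fits with the score or without these mice thus cannot tell myelin level and Fkbp5 group fully apart. The part of the other marker levels and of plate column in the differences between high and low Fkbp5 mice was not tested.

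**Figure D5:**
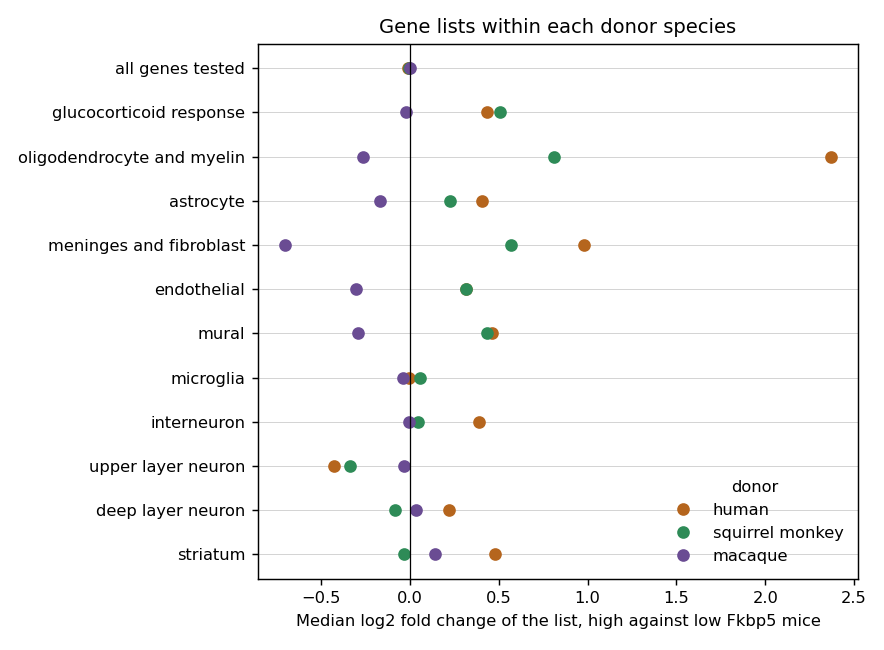
Median log2 fold change of high against low Fkbp5 mice for 12 sets of genes, within each donor species. The glucocorticoid response list has medians of 0.43, 0.51 and −0.02 in human, squirrel monkey and macaque mice, and the myelin list 2.37, 0.81 and −0.27.

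Other stress-related lists gave 0 called genes each (edgeR, adjusted p under 0.05). In lists of this size that is near the share of all genes called (0.265%). Of 24 neuronal immediate early genes 14 were above 0 (median 0.08); the transcription factor gene Nr4a2 had 0.65 ± 0.17 (adjusted p = 0.0905) and the synaptic gene Arc 0.51 ± 0.24 (0.426). Of 22 heat shock and endoplasmic reticulum chaperones 16 were above 0 (median 0.04), and the heat shock gene Hspa1b had 0.72 ± 0.26 (adjusted p = 0.243). Of 12 FoxO and metabolic genes 11 were above 0 (median 0.21), among them Txnip, a thioredoxin inhibitor gene, with 0.54 ± 0.21 (0.275) and Foxo1 with 0.37 ± 0.14 (0.258). Of 18 clock genes 9 were above 0 (median −0.02).

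Lists of general cell functions also had 0 called genes, again near the share of 0.265% of all genes. Members above 0 numbered 33 of 36 for the respiratory chain (median 0.08), 26 of 40 for ribosomal proteins (0.02), 17 of 19 for cholesterol synthesis (0.16) and 7 of 12 for interferon response and MHC genes (0.08). Glutamate receptor genes were above 0 in 5 of 19 cases (median −0.10) and GABA receptor genes in 4 of 14 (−0.05). The 4 Y-linked genes had a median of −0.04, with 2 of 4 above 0.

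The count of called genes moved with the donor species included. Without the macaque mice 433 genes were called higher and 280 lower, and without the human or without the squirrel monkey mice 0 were called (533 and 1045 genes at an unadjusted p under 0.05). All 35 genes kept their direction without any one donor species. They were called in these same mice, so a kept direction is no independent check. Macaque 6, the low mouse of shallowest depth in the series, had the highest Tsc22d3 and Mt1 and the highest myelin score of the macaque mice compared. Without it 104 genes were called higher and 40 lower, all 35 among them. In that fit Tsc22d3 had a log2 fold change of 0.51 (edgeR adjusted p = 0.0167) and Errfi1 0.68 (adjusted p = 0.0332).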

How the data were processed

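RNA of the frontal cortex was sequenced by TagSeq, which reads near the 3′ end of transcripts (single reads, per the labels). Deposited values are the authors' raw counts for each Ensembl gene; the build was GRCm39, per the submitters' processing notes. The aligner, counter, strand setting and duplicate handling were not given in the sources used here. Among the 23958 rows of the table, 76 had no symbol in the gene name table (0.031% of counts), and 3 columns of counts match no sample used here and were not used. Totals were 1035036 to 2089308 counts per mouse. No 2 mice held identical counts: chi-square per degree of freedom over 160 pairs within donor species was 1.41 to 7.24.

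Members and gene lists were chosen with earlier results of these data known. The high and low mice were fitted together with edgeR 4.0.16 (R 4.3.3; quasi-likelihood test, terms for donor species and state, TMM factors 0.95 to 1.04, filterByExpr with minimum count 10 and total 15), with Benjamini-Hochberg adjustment over 13219 genes other than Fkbp5 at 0.05. The common biological coefficient of variation was 0.139. Donor differences come from a fit with the interaction. P-values set a difference against the spread between these mice, taken as independent within donor species. Shared donor individuals or cages are not known, so that independence was not checked. Relabelling tests used scipy 1.17.1 and numpy 2.4.6 on log2(CPM + 1); the smallest p they can give is 2.04e-05. The myelin score used log2 CPM with a prior count of 2.

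Named genes were the 12 higher and 12 lower of largest fold change past the threshold with at least 5 CPM on average and a symbol that is no gene model name; from each of 26 lists up to 6 members of smallest p (12 of the glucocorticoid list); and 4 interaction genes. The names taken from the other 11 called genes, Nr3c1 and Dusp1 were added after their values were seen. A further 3 regional lists were added after seeing the data. The rule for sequences took only called members with a motif, which none had. Overlaps between genes, and matches to other genes within the last 300 bases of each gene's transcripts (at least 100 bases at 95% identity, BLAST 2.17.0) came from GENCODE M21. It is of another build, so no coordinates were taken from it. In simulated counts for 13220 genes the test recovered 18% of genes changed 1.25-fold, 62% at 1.5-fold, 86% at 2-fold and 100% at 3-fold. It made 5 false calls (3.62% of calls). Each gene was drawn independently there, so differences that many genes share in these libraries, such as myelin levels, were not simulated. The recovery and false calls may not hold for the measured counts. Alternatives included DESeq2 1.42.0 and limma 3.58.1. 1 named gene is not reported here.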

Additional observations from a re-analysis of the deposited data

Results flagged for a closer look

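Of 108 groups of 4 mice tested (27 genes), 4 had 1 mouse far from the others by Dixon's criterion; chance alone gives about 1 in 20. Spink8 in human high mice had 6.84 CPM in human 7, with the nearest mouse at 16.2 CPM. Dusp5 in human high mice had 19.5 CPM in human 12, with the nearest at 9.29 CPM. In macaque low mice, macaque 6 had 161 CPM of Slc39a10 (nearest 217 CPM) and 96.6 CPM of Sgk1 (nearest 40.9 CPM).

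The high against low difference depended on donor species for 5 genes (edgeR interaction test). The adjusted p was 0.0336 for Lmo4, Cntn2 and Stxbp6 and 0.0451 for Sema6a and Ptgis. Ptgis, which encodes prostacyclin synthase, had log2 fold changes of 2.47 ± 0.54 in human, 1.501 ± 0.71 in squirrel monkey and −2.35 ± 0.66 in macaque mice (SE). Its levels were 13.8, 14.1, 6.84 and 4.26 CPM in human high mice against 0.957, 2.03, 1.09 and 2.98 CPM in low mice, and 2.62, 0.648, 1.59 and 0.651 CPM in macaque high mice against 2.75, 14.5, 8.17 and 4.18 CPM in low mice. The gene overlaps others on the opposite strand and shares its last bases with 1 of them, so its values are uncertain.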

How the results depend on the processing

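No paired analysis was possible because the labels give no replicate numbers that groups share. All 35 called genes kept their direction under every alternative. These fits reuse the mice in which the genes were called, so that is no independent check. The counts did not hold. Against 23 higher and 12 lower, library totals gave 14 higher; no filter 225 and 95; DESeq2 30 lower (34 higher); limma voom 78 and 39; batch in place of donor species 7 and 5; the myelin score as covariate 2 and 0; the top and bottom 3 of every donor species 1 and 2; and all 32 mice with log2 Fkbp5 as a continuous term 0 and 1 (1236 genes at an unadjusted p under 0.05, edgeR). No donor term gave 0 and 0 (1406 at an unadjusted p under 0.05, edgeR). Without human mice or without squirrel monkey mice it was 0 and 0 (533 and 1045 at an unadjusted p under 0.05, edgeR), without macaque mice 433 and 280, and without the 4 mice of highest myelin score, chosen after seeing the data, 3 and 0. Ranking on TMM-scaled Fkbp5 moved 0 mice.

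Leaving out 1 mouse gave 0 to 104 higher and 0 to 65 lower genes. The total was 0 without human 1, 6, 9 or 11, squirrel monkey 2, 3, 5 or 6, or macaque 8 (1289 to 1523 genes at an unadjusted p under 0.05, edgeR). It was 10, 14, 15 and 8 without human 2, 4, 7 and 12, 8 and 20 without squirrel monkey 7 and 8, and 28, 68, 144, 77, 145, 8 and 38 without macaque 2, 4, 6, 7, 9, 10 and 12. The interaction called 3 genes at a mean of at least 5 CPM, 61 in DESeq2's likelihood ratio test and 0 to 126 with 1 mouse left out (126, 63, 29, 22 and 10 without macaque 8, human 7, macaque 10, squirrel monkey 6 and squirrel monkey 8; 1 without human 9 or squirrel monkey 5; 0 without human 1, 6 or 11, squirrel monkey 2, or macaque 2, 6, 7, 9 or 12). Tsc22d3 gave differences of 0.36 to 0.49 with 1 mouse left out (exact permutation p under 0.05 in 22 of 22, and in 14 of 22 once adjusted over the 2 marker genes), adjusted p of 0.0569 relabelled within batch and 0.0585 with the top and bottom 3 mice (exact permutation tests), and 0.33 without the 4 mice of highest myelin score (exact permutation p = 0.133). Sgk1 gave 0.35 to 0.60. Of the genes named, 3 that did not pass changed sign: Fkbp4 (−0.042 with the myelin score, −0.00075 without the 4 mice), and, without the human mice, Dusp1 (0.014) and Col1a1 (−0.14). The cause of these changes was not tested, and the fits that leave mice out also hold fewer mice. The Fkbp5 ranking itself is limited by 34 to 134 counts per mouse and by the opposite-strand overlaps of Fkbp5.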
